A study of Spodoptera frugiperda with 12 samples.

Results

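In *Spodoptera frugiperda* (fall armyworm, a moth) embryos, N6-methyladenosine (m6A) peaks that overlapped on opposite strands were examined. A peak is a stretch called as enriched among RNA fragments captured with an antibody against m6A. In each of the 6 deposited peak lists, peaks spanning at most 1000 bases were taken when they overlapped, by 1 base or more, a peak of at most 1000 bases on the other strand of the same list. Members were chosen by the deposited positions, strands and spans alone, which are therefore no results here, and the score was not used. This gave 2329 peaks among 316075 peaks of that span and 331440 peaks in all, and these 2329 peaks formed 1295 overlapping plus-minus pairs. The same place can be counted in several lists, and 1 peak can belong to several pairs. The lists came from wild embryos with no stated genotype or treatment, 3 lists from embryos collected 24 h after oviposition and 3 from embryos collected 2 h after oviposition. Each group was described only as a large number of eggs from a laboratory colony reared on artificial diet, and the labels leave unstated whether lists of the same time trace back to different batches of eggs. P-values therefore describe the spread between these lists only, which may be technical. The uncaptured input samples of both times were not analysed here. The lists name no genes, so markers of the embryo were not checked.

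m6A is written on adenosines of messenger RNA by a methyltransferase complex around METTL3 and METTL14 and is read by proteins with a YTH domain. In the animals where it has been mapped most closely, the mark is often found towards the 3' end of messages. Neighbouring genes on opposite strands can share sequence when their ends run past each other, tail to tail at the 3' ends or head to head at the 5' ends, or when 1 gene lies within another. Both RNAs of such a pair hold the same stretch of genome in complementary form.

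The strand of a peak is the authors' label in the deposited lists. The protocol does not describe the library kit as marking strand, and the sources used here do not say how the strand was assigned. It is therefore unknown whether reads from overlapping transcripts of opposite strands could be told apart, and a pair does not show that both RNAs carried m6A. The share of the captured reads that belonged to either strand was not tested. Depth is unknown for every peak, since read counts are not part of the lists.

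Fewer opposite-strand pairs were listed at 24 h than at 2 h, although the 24 h lists held more peaks. The 24 h lists held 186, 211 and 188 pairs, against 212, 250 and 248 pairs in the 2 h lists. Every 24 h list was below every 2 h list, but the highest 24 h list and the lowest 2 h list were a single pair apart. The mean was 195 ± 13.9 pairs at 24 h and 237 ± 21.4 pairs at 2 h (mean ± SD, n = 3 each), a difference of -41.7 pairs or -17.6% (two-sided exact permutation p = 0.1, the smallest that 3 lists against 3 can give, and 0.15 after Benjamini-Hochberg adjustment over the 3 main comparisons between times). Peaks of at most 1000 bases numbered 54048, 55308 and 54152 at 24 h, against 50947, 52666 and 48954 at 2 h. Peaks in pairs made up 0.648%, 0.700% and 0.637% of these at 24 h and 0.746%, 0.837% and 0.870% at 2 h. This share averaged 0.661% ± 0.0335 at 24 h and 0.818% ± 0.0644 at 2 h (mean ± SD, n = 3 each, two-sided exact permutation p = 0.1, adjusted p = 0.15), and again no 24 h list reached a 2 h list. Without the sequence NC_049727.1, which held the most pairs, the difference was -31.3 pairs and the lists of the times overlapped (two-sided exact permutation p = 0.2). They also overlapped with peaks up to 500 bases (-29.3 pairs, p = 0.2) and with no limit on span (-39.3 pairs, p = 0.3, both two-sided exact permutation).

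**Figure D1:**
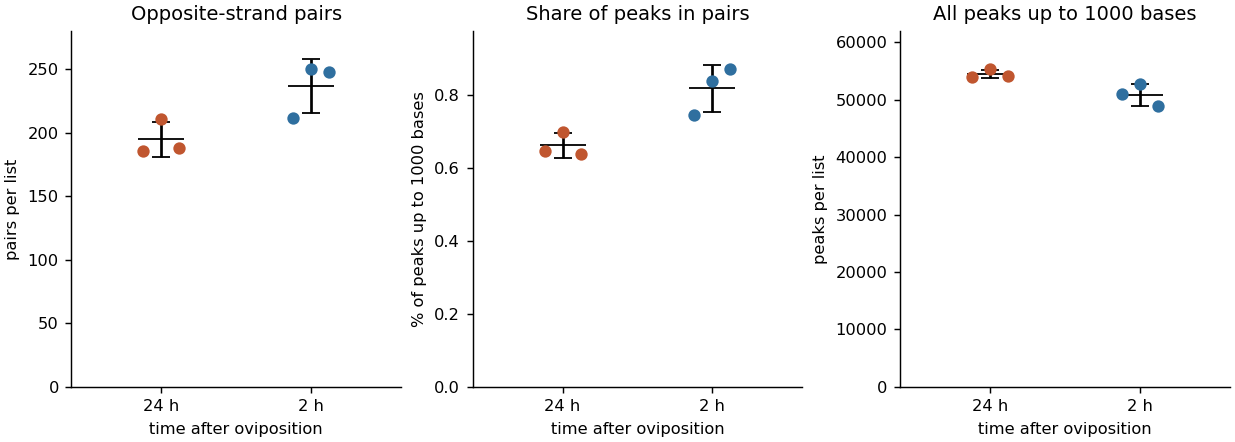
Number of opposite-strand pairs per list (left), share of peaks up to 1000 bases that were in a pair (middle, in percent) and number of peaks up to 1000 bases (right) in the 24 h and 2 h lists. Points are lists, the horizontal mark is the mean and the bars are the SD of 3 lists; the 24 h lists held 186 to 211 pairs and the 2 h lists 212 to 250, while the 24 h lists held more peaks.

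The number of peaks did not separate the times in places where loci of both strands overlap. Same-strand peaks of the 6 lists, pooled, were joined into loci where the gap was under 2000 bases, and loci stand here for transcribed units. Peaks lying on a locus of the other strand numbered 1045, 1106 and 1082 at 24 h and 1028, 1094 and 1067 at 2 h, and the ranges of the times overlapped (two-sided exact permutation p = 0.6). Of these peaks, 33.5% ± 1.55 at 24 h and 39.1% ± 1.83 at 2 h (mean ± SD, n = 3 each) overlapped a peak of the other strand, and the 24 h lists all stood below the 2 h lists (two-sided exact permutation p = 0.1, adjusted p = 0.225 over 9 comparisons between times). By span, the share of peaks in pairs was lower in every 24 h list for peaks of 51 to 100 bases (0.697% ± 0.113 at 24 h and 0.935% ± 0.10 at 2 h) and of 201 to 1000 bases (0.699% ± 0.0828 at 24 h and 0.964% ± 0.114 at 2 h; SD, n = 3, two-sided exact permutation p = 0.1 and adjusted p = 0.2 over 4 spans, for each). For peaks of up to 50 bases (p = 0.3) and of 101 to 200 bases (p = 0.7, both two-sided exact permutation) the lists of the times overlapped in range.

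Most overlaps were short and the partners rarely shared an end. Different ends do not show that the partners came from different reads, which was not tested. The overlapped stretch had a median of 25 bases in every list and ranged over the lists from 1 to 390 bases. It was shorter than 25 bases in 38.2%, 44.5% and 38.8% of pairs at 24 h and in 41.0%, 42.0% and 36.7% of pairs at 2 h, with no separation between the times (two-sided exact permutation p = 0.9). No pair in any list had the same start and the same end on both strands, and 1 or 2 pairs per list shared an end. The starts of the partners lay a whole number of 25-base steps apart in 2.80% to 4.03% of pairs per list, beside the 4% that unrelated steps would give. The starts of partners thus followed no common 25-base steps, the unit in which most short peaks of these lists are measured. In 65 to 96 pairs per list 1 peak lay wholly inside its partner, in 71 to 99 the peaks overlapped at their 3' ends and in 45 to 58 at their 5' ends. Pairs with a peak inside its partner numbered 66, 70 and 65 at 24 h against 79, 96 and 96 at 2 h, and pairs joined at the 3' ends of the peaks 71, 83 and 78 at 24 h against 86, 97 and 99 at 2 h (two-sided exact permutation p = 0.1 and adjusted p = 0.225 over 9 comparisons, for each). Pairs joined at the 5' ends of the peaks numbered 49, 58 and 45 at 24 h and 47, 57 and 53 at 2 h, with values of both times intermixed (two-sided exact permutation p = 0.8).

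Between 345 and 441 peaks per list were in pairs, and from 319 to 394 of them had a single partner. A peak had at most 3 or 4 partners, depending on the list. The longest peak in a pair spanned 961 bases, and 9 spanned more than 900 bases. Just outside the limit, 1 peak of 1077 bases overlapped a peak of the other strand, and no other such peak spanned 1100 bases or less.

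With peaks joined under 2000 bases, the loci that held overlapping peak pairs met mostly tail to tail. Of all 440 overlapping opposite-strand locus pairs, with or without such peaks, 217 did so. The 1295 pairs fell on 262 pairs of overlapping plus and minus loci, and 521 of the 17120 loci (3.04%) took part. Of these 262 locus pairs, 199 (76.0%, exact 95% binomial interval 70.3% to 81.0%) met tail to tail, 7 (2.67%, 1.08% to 5.43%) head to head, and 56 (21.4%, 16.6% to 26.8%) had 1 locus within the other. Among the nested ones the plus locus was the inner one in 23 and the minus locus in 33. The intervals cover counting error only, and neighbouring loci are not independent. In the 178 overlapping locus pairs without any overlapping peaks, 18 (10.1%, 6.10% to 15.5%) met tail to tail, 16 (8.99%, 5.23% to 14.2%) head to head and 144 (80.9%, 74.3% to 86.4%) were nested. These sets are not independent of the rule, because a peak that ends a locus also sets the overlap: the shared stretch of the 199 tail-to-tail locus pairs had a median of 42 bases and was under 100 bases in 122 of them, while that of the 56 nested ones had a median of 922 bases. Opposite-strand neighbours that did not overlap and lay at most 1000 bases apart met tail to tail in 873 of 1980 cases (44.1%, 41.9% to 46.3%) and head to head in 1107. No test was made between these sets. The joining distance set the share: it was 82.1% tail to tail when peaks were joined under 500 bases and 40.6% when they were joined under 10000 bases.

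**Figure D2:**
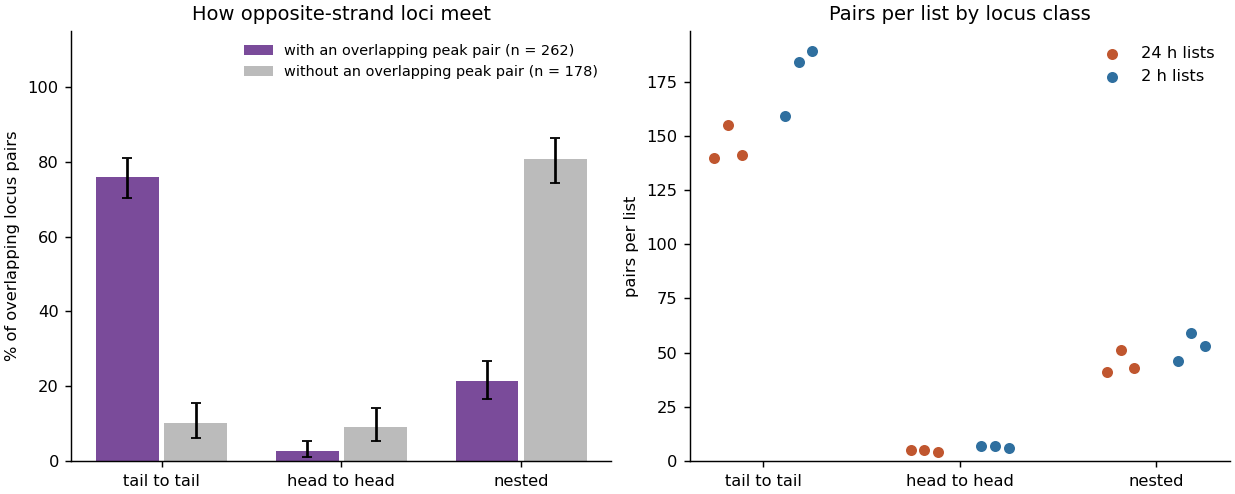
Left, share in percent of overlapping opposite-strand locus pairs that met tail to tail, met head to head or were nested, for the 262 locus pairs with an overlapping peak pair and the 178 without one; bars start at 0 and whiskers are exact 95% binomial intervals. Right, number of peak pairs per list in each class, with 24 h lists left of 2 h lists; tail-to-tail pairs numbered 140 to 155 at 24 h and 159 to 189 at 2 h.

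With the limit of 1000 bases, the times did not separate in the share of pairs on tail-to-tail loci. Tail-to-tail loci held 140, 155 and 141 pairs at 24 h, against 159, 184 and 189 at 2 h. That was 74.6% ± 0.976 of the pairs at 24 h and 74.9% ± 1.31 at 2 h (mean ± SD, n = 3 each), a difference of -0.36 percentage points (two-sided exact permutation p = 0.8), and it was 0.862 without the 2 h list of replicate 3. With no limit on span the difference was -5.85 percentage points, and the lists of the times then separated (two-sided exact permutation p = 0.1). Nested loci held 41, 51 and 43 pairs at 24 h, against 46, 59 and 53 at 2 h (two-sided exact permutation p = 0.2, adjusted p = 0.2 over 3 classes). Head-to-head loci held 4 or 5 pairs per list at 24 h and 6 or 7 at 2 h (two-sided exact permutation p = 0.1, adjusted p = 0.15). In tail-to-tail loci the peaks themselves overlapped at their 3' ends in 406 of 968 pairs (41.9%), 1 peak lay within the other in 356 (36.8%), and the peaks overlapped at their 5' ends in 206 (21.3%). In tail-to-tail loci, the median peak in a pair lay, counted from the 5' to the 3' end, 96.9% to 98.0% of the way along its plus locus and 97.2% to 97.9% of the way along its minus locus, over the 6 lists. In the head-to-head loci it lay 10.9% to 19.0% and 5.52% to 19.1% of the way along. In both classes this follows from the definition, since a peak in a pair must touch the stretch that the loci share at those ends. It does not show where peaks lie along loci in general. In the nested loci these positions were 62.5% to 68.4% for the plus and 66.7% to 80.5% for the minus locus.

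Loci in these pairs were mostly loci with peaks in every list. Of the 521 loci, 469 (90.02%) had a peak in all 6 lists, beside 8945 of all 17120 loci (52.2%). In 216 of the 262 locus pairs (82.4%) both loci had peaks in all 6 lists, and in 93 of the 178 overlapping locus pairs without overlapping peaks (52.2%). A locus with more peaks has more chances to hold a pair, and this was not adjusted for.

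Plus-strand peaks in pairs often ended off the 25-base steps. A span that was no whole multiple of 25 bases was found in 32.8%, 33.5% and 30.2% of plus-strand peaks in pairs at 24 h and in 35.6%, 37.4% and 35.4% at 2 h. Over the 6 lists this was 34.2% ± 2.53, against 14.1% ± 0.411 of the other plus-strand peaks (SD, n = 6), 20.1 percentage points higher and higher in 6 of 6 lists (two-sided exact sign-flip p = 0.031, the smallest that 6 lists can give, adjusted p = 0.031 over 7 comparisons of peaks in pairs with other peaks). On the minus strand the order was opposite, with 2.90% ± 0.724 of peaks in pairs and 11.1% ± 0.385 of the other peaks off the steps (SD, n = 6, a difference of -8.17 percentage points, lower in 6 of 6 lists, two-sided exact sign-flip p = 0.031, adjusted p = 0.031). In 352 of 438 pairs with such a plus-strand peak (80.4%) that peak ended at the 3' end of its locus, while in the 857 other pairs the plus-strand peak did so in 280 (32.7%). The end coordinate was found again to the base in at least 1 other list for 369 of 395 off-step plus-strand peaks in pairs (93.4%) and for 70.4% of the other off-step plus-strand peaks. Peaks in pairs were chosen by position, strand and span, and most pairs lay in tail-to-tail loci, which meet at their 3' ends. The sign-flip tests on spans therefore cannot tell a property of pairs from this choice. Off-step minus-strand peaks were in 3.31% of tail-to-tail, 3.75% of nested and 17.6% of head-to-head pairs, the smallest class. Off-step plus-strand peaks were in 29.4% of head-to-head pairs and a larger share of the others. No test compared these classes. The sources used here do not say how the steps were laid out on each strand, and its part in the strand difference was not tested.

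Peaks in pairs were among the stronger peaks of their lists. The authors gave each peak a score of unstated scale, which is used here only as a rank within a list, written as a percentile of all peaks of that list. The median percentile of peaks in pairs was 74.8, 75.7 and 79.2 at 24 h and 74.9, 77.6 and 76.5 at 2 h, while that of the other peaks up to 1000 bases lay between 49.1 and 49.5 in all 6 lists. The difference was 27.1 ± 1.77 percentile points (SD, n = 6 lists), higher in 6 of 6 lists (two-sided exact sign-flip p = 0.031, adjusted p = 0.031 over 7 comparisons). Many peaks in pairs were found again in other lists, so the 6 differences are not independent of each other. Score percentiles and the share of peaks in pairs both differed between spans, so means were also compared within 4 spans (up to 50, 51 to 100, 101 to 200 and 201 to 1000 bases). Over all spans together, the mean percentile of peaks in pairs was 17.6 to 22.8 points above that of other peaks, depending on the list. Averaged over the 4 spans, it was 16.6 ± 1.35 points above (SD, n = 6, 6 of 6 lists, two-sided exact sign-flip p = 0.031, adjusted p = 0.031). Each span was weighted by its number of peaks in pairs. In medians, the difference was smallest for 101 to 200 bases in every list, at 5.14 to 10.8 points. From 49.7% to 58.3% of peaks in pairs per list lay above the 75th percentile, and 4.31% to 8.57% lay at or below the 25th percentile. Between the times the median percentile of peaks in pairs did not separate (76.6 ± 2.35 at 24 h and 76.3 ± 1.39 at 2 h, mean ± SD, n = 3 each, two-sided exact permutation p = 1).

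Within a pair, the partners rarely had equal scores, but gaps under 10 percentile points were more frequent than gaps over 50. The stronger partner had a median percentile of 83.4, 87.2 and 88.5 at 24 h and 85.1, 86.5 and 86.7 at 2 h. The weaker partner had 62.0, 65.5 and 69.4 at 24 h and 64.0, 70.2 and 70.2 at 2 h, and so stood above the median of the other peaks in every list. The median gap between partners was 12.9 ± 0.865 percentile points at 24 h and 12.9 ± 0.526 at 2 h (mean ± SD, n = 3 each, two-sided exact permutation p = 0.9). The gap was under 10 points in 38.2% to 46.3% of pairs per list and over 50 points in 6.16% to 11.3%. No gap between unrelated peaks is given here for comparison. As a description, Spearman's rho between the percentiles of the partners across pairs was 0.436 to 0.454 in the 24 h lists and 0.368 to 0.405 in the 2 h lists, over 186 to 250 pairs per list that share peaks and the library. The plus-strand partner had the higher score in 98, 103 and 91 pairs at 24 h and in 118, 142 and 138 pairs at 2 h, and the minus-strand partner in 86, 106 and 94 pairs at 24 h and 93, 106 and 110 pairs at 2 h. In nested loci the peak of the inner locus had a median percentile of 75.6 ± 3.08 and its partner in the outer locus 73.3 ± 5.04 (SD, n = 6), higher in 4 of 6 lists (two-sided exact sign-flip p = 0.281). An infinite score was recorded for 6 to 14 peaks in pairs per list, 1.64% to 3.17% of them, and for 0.859% to 1.41% of the other peaks.

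**Figure D3:**
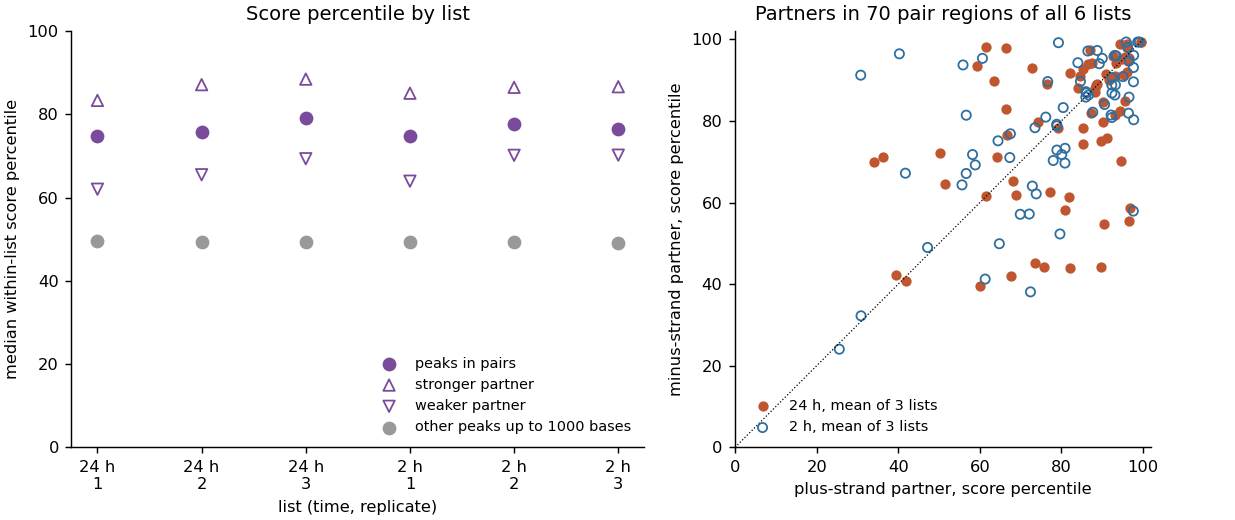
Left, median within-list score percentile of peaks in pairs, of the stronger and the weaker partner and of the other peaks up to 1000 bases, by list with the 24 h lists first; peaks in pairs lay at 74.8 to 79.2 and other peaks at 49.1 to 49.5. Right, score percentile of the plus-strand partner against that of the minus-strand partner in the 70 pair regions of all 6 lists, each as the mean of 3 lists at 24 h (filled) and at 2 h (open); the dotted line marks equal percentiles.

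Peaks in pairs were also found again more often in the other lists. On average over the 5 other lists, a same-strand peak overlapped 77.9%, 78.7% and 84.4% of the peaks in pairs of the 24 h lists and 84.5%, 83.1% and 81.5% of those of the 2 h lists. The other peaks up to 1000 bases were overlapped in 52.4%, 52.7% and 54.0% at 24 h and in 59.4%, 58.0% and 60.6% at 2 h. The difference was 25.5 ± 2.99 percentage points (SD, n = 6, higher in 6 of 6 lists, two-sided exact sign-flip p = 0.031, adjusted p = 0.031 over 7 comparisons). Within the 4 spans it was 20.2 ± 4.10 points, and within the 4 spans and 4 equal classes of the score percentile together it was 9.45 ± 3.31 points, from 3.97 to 12.6 over the lists (SD, n = 6, 6 of 6 lists and two-sided exact sign-flip p = 0.031, adjusted p = 0.031, for both). Span and score thus moved with a large part of the difference. Each class was weighted here by its number of peaks in pairs. The lists enter each other's values, so the 6 differences are not independent of each other.

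Pair regions were less often found in a single list, and slightly more often in all 6, than merged regions of peaks in general, a difference that was not tested. The overlapped stretches of all lists were joined where they overlapped, which gave 420 pair regions with a median length of 25 bases and a longest of 412 bases. A pair was present in all 6 lists in 70 regions (16.7%), beside 14.4% of all 112872 regions made by joining overlapping same-strand peaks up to 1000 bases. Presence of a merged region takes any peak in a list, while that of a pair region takes overlapping peaks of both strands. The shares of these kinds of region are therefore not like for like. Pairs of a single list made up 150 regions (35.7%), beside 45.5% of all merged regions. In the pair regions of all 6 lists, the lowest percentile of the weaker partner over the lists had a median of 55.1, against 40.5 in the regions of a single list.

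**Figure D4:**
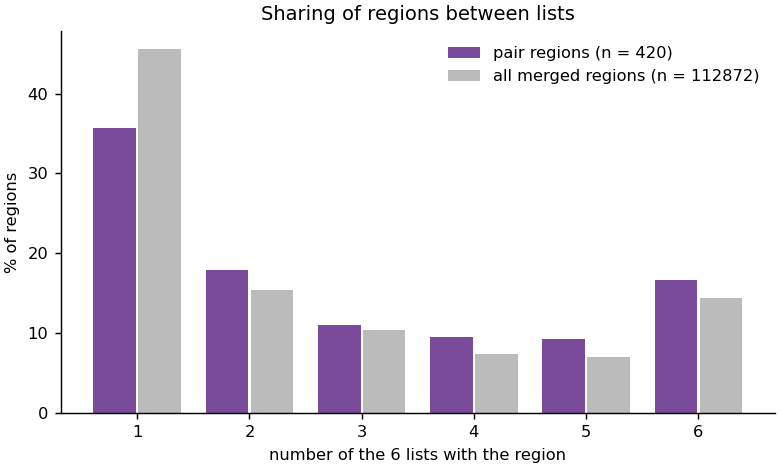
Share in percent of the 420 pair regions and of the 112872 merged regions of same-strand peaks up to 1000 bases, by the number of the 6 lists in which the region was present. Pair regions of all 6 lists made up 16.7% and those of a single list 35.7%.

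Pairs were shared less among the 24 h lists than among the 2 h lists. At 24 h, 315 pair regions were present in at least 1 list and 81 of them (25.7%) in all 3; at 2 h, 316 were present in at least 1 list and 138 (43.7%) in all 3. The number of places with a pair in some list was thus nearly equal at both times, and the number shared by all lists of a time was not. For all merged regions the same shares were 25.2% at 24 h and 38.2% at 2 h, so the order was that of peaks in general. A pair of 24 h lists shared 40.7% of the pair regions found in either (37.6% to 43.9%, 3 pairs of lists), a pair of 2 h lists 57.4% (55.1% to 59.6%), and a 24 h and a 2 h list 43.0% (36.0% to 49.2%, 9 pairs of lists). For all merged regions these shares were 39.1% within 24 h, 52.0% within 2 h and 38.6% between the times. Sharing within 2 h was thus the highest of these for both, and these shares were not tested.

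A missing pair was mostly a missing peak on a single strand. Over the 6 lists, 1307 cases arose in which a list lacked the pair of a region found elsewhere. In 62.6% of them the list still had a peak up to 1000 bases on 1 strand over the span of the partners, in 23.4% it had peaks on both strands that did not overlap, and in 14.0% it had none. A peak on the plus strand alone was left in 76, 78 and 89 cases in the 24 h lists and in 75, 64 and 68 in the 2 h lists. The minus strand alone was left in 64, 57 and 63 cases at 24 h and in 72, 59 and 53 cases at 2 h. The plus strand alone was the more frequent of these states in each of the 6 lists.

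Few pair regions were exclusive to a time, which also held for merged regions of peaks in general. The differences between these shares were not tested. Present in 3 of 3 lists of 24 h and 0 of 3 of 2 h were 2 of 420 (0.476%), beside 2.13% of all merged regions. Present in 3 of 3 lists of 2 h and 0 of 3 of 24 h were 9 (2.14%), beside 1.68% of all merged regions. No single region was tested, since the smallest exact two-sided p with 3 lists per time is 0.1. With any 1 list left out, which loosens the requirement, these counts were 2 to 12 at 24 h and 12 to 24 at 2 h. All 11 lay in tail-to-tail loci, beside 315 of all 420 pair regions (75%). None of them lacked peaks of both strands in all lists of the other time. Counted by single list, peaks of both strands were lacking in 14.0% of all missing pairs. For both of the 24 h-only regions some 2 h list had the plus-strand peak and none had the minus-strand peak. For 5 of the 9 2 h-only regions, peaks of each strand were found among the 24 h lists, though possibly in different lists. For 3 the 24 h lists had peaks on the plus strand only and for 1 on the minus strand only.

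The strongest of the 24 h-only regions was on NC_049730.1 from 12867515 to 12867703, a 189-base stretch in which the overlap was 75 to 114 bases per pair. Positions are counted from 1 on the sequence names of the lists, the sources used here do not name the genome build, and whether they are exonic or intronic was not analysed here. Its plus-strand peak stood at percentiles 88.3, 90.1 and 87.3 in the 24 h lists and its minus-strand peak at 88.8, 92.4 and 75.7. The other, on NC_049721.1 from 15807048 to 15807106, was weaker and more variable: its plus-strand peak stood at 52.6, 63.4 and 84.6 and its minus-strand peak at 61.9, 26.6 and 14.1. In this region the minus-strand peak was low where the plus-strand peak was high.

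The strongest of the 2 h-only regions was a 16-base overlap on NC_049729.1 from 463689 to 463704. In the 2 h lists its plus-strand peak stood at percentiles 93.8, 99.3 and 95.2 and its minus-strand peak at 94.3, 95.7 and 98.2. The next, on NC_049715.1 from 8599939 to 8599963, paired a plus-strand peak at 97.3, 97.8 and 97.9 with a minus-strand peak at 78.7, 86.3 and 85.1. Both of these were on the same locus pairs as regions present in all 6 lists. The next, on NC_049717.1 from 5481254 to 5481328, had 92.4, 93.4 and 90.9 on the plus strand and 68.8, 78.8 and 76.1 on the minus strand. The last of the 4 named, on NC_049725.1 from 1253901 to 1253925, had 95.8, 96.7 and 97.0 on the plus strand and 59.8, 75.1 and 73.8 on the minus strand. In the last 3 of these 4 regions the plus-strand peak was the stronger one in all 3 lists.

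Of the 70 pair regions of all 6 lists, 51 lay in tail-to-tail, 2 in head-to-head and 17 in nested loci. These were 16.2% of the 315 tail-to-tail and 17.9% of the 95 nested pair regions, and 2 of the 10 head-to-head ones. The region with the strongest pair was on NC_049729.1 from 463855 to 464008, where tail-to-tail loci on the plus strand (461395 to 464008) and the minus strand (463380 to 472044) meet. At 24 h both peaks had an infinite score in all 3 lists. At 2 h both did in the lists of replicates 1 and 2, while in the list of replicate 3 the minus-strand peak did and the plus-strand peak stood at percentile 98.9. The overlap was 129 to 154 bases. Next came NC_049727.1 from 6687317 to 6687441, also tail to tail, with 96.4, 94.7 and 97.3 at 24 h and 98.0, 99.3 and 98.8 at 2 h on the plus strand, and 98.6, 98.7 and 99.4 at 24 h and 99.3, 99.3 and 99.5 at 2 h on the minus strand. The next 2 were in nested loci, on NC_049734.1 from 6790279 to 6790349 and on NC_049724.1 from 12271621 to 12271795. The one on NC_049734.1 had its minus-strand peak at 98.2 to 99.5 and its plus-strand peak at 93.6 to 96.2 over the 6 lists. The last 2 of the 6 named, NC_049727.1 from 6651450 to 6651524 and NC_049715.1 from 8600189 to 8600235, were tail to tail.

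The stronger strand was the same in all 6 lists in 26 of these 70 regions (37.1%), the plus strand in 13 and the minus strand in 13. In the other 44 it varied between lists or the partners had equal scores in some lists, as with the infinite scores on NC_049729.1 above. The difference between plus and minus percentiles, averaged with its sign over 6 lists, had a median size of 6.03 points and reached 43.4. Where the stronger strand varied, differences of opposite sign cancel in this mean. It is therefore not comparable with the median gap between stronger and weaker partners given above. In 5 of the 70 regions (7.14%) 1 strand was the stronger in all 3 of the 24 h lists and the other in all 3 of the 2 h lists, and these 5 regions were singled out after their values were seen. No share for unrelated peaks is given here for comparison, and the change of the stronger strand was not tested. The widest at 24 h was on NC_049711.1 from 15499538 to 15499637, tail to tail. There the plus-strand peak stood at 81.2, 73.2 and 66.4 at 24 h and at 69.7, 79.1 and 79.7 at 2 h, while the minus-strand peak stood at 42.1, 47.9 and 45.5 at 24 h and at 77.8, 80.0 and 85.0 at 2 h. The minus-strand values of the times did not overlap and the plus-strand values did. On NW_023337157.1 from 5863 to 5871 the plus-strand peak stood at 76.7, 78.8 and 76.1 at 24 h and at 72.7, 70.1 and 59.7 at 2 h, and the minus-strand peak at 70.2, 54.0 and 63.9 at 24 h and at 76.2, 80.4 and 74.0 at 2 h. In a nested pair on NC_049724.1 from 10568815 to 10569189 the minus strand was the stronger at 24 h and the plus strand at 2 h. The remaining 2, on NC_049715.1 (the region from 8600189 above) and on NC_049724.1 from 10459454 to 10459466, had both partners at percentile 86.1 or higher in every list.

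Most locus pairs held a single pair region and a few held many. A single region was present in 190 of the 262 locus pairs and at least 3 in 37. The most, 10 regions, were in 2 locus pairs. The first had a plus locus on NC_049727.1 from 3872440 to 3874133 inside a minus locus from 3872436 to 3879550, and held 5, 5 and 4 pairs in the 24 h lists and 3, 7 and 7 in the 2 h lists. The second lay on the sequence NW_023337147.1, where a plus locus from 27286 to 28707 and a minus locus from 27288 to 41173 shared 1420 bases, with 3, 4 and 5 pairs at 24 h and 4, 5 and 5 at 2 h. Then came 9 regions each in a tail-to-tail pair on NC_049713.1 (plus 16589096 to 16592138, minus 16591064 to 16598867), with 1, 3 and 4 pairs at 24 h and 5, 4 and 7 at 2 h, and in a nested pair on NC_049719.1 (plus 11232271 to 11239949, minus 11238291 to 11239940), with 2, 4 and 4 pairs at 24 h and 5 in each 2 h list. In the last 2 of these locus pairs every 24 h list held fewer pairs than, or as many as, the 2 h list with the fewest, and in the first 2 the times overlapped.

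**Figure D5:**
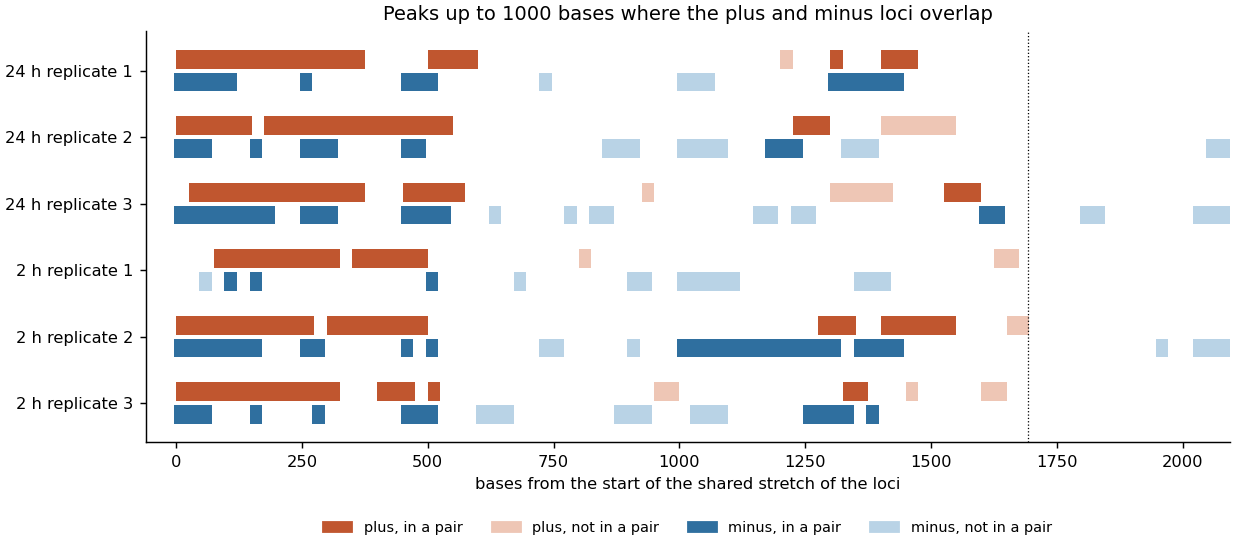
Peaks up to 1000 bases in each list where the plus locus on NC_049727.1 lies inside a minus locus, the locus pair with the first of the highest numbers of pair regions (10). The horizontal axis is the distance in bases from the start of the stretch the loci share, whose end is the dotted line; upper bars are plus-strand and lower bars minus-strand peaks, in full colour when in a pair. The 24 h lists held 5, 5 and 4 pairs there and the 2 h lists 3, 7 and 7.

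Pair regions were spread over 36 sequences, with 0.225 to 9.08 pair regions per 100 loci among the sequences with at least 100 loci and any pair region (median 2.18). The highest was NC_049727.1, with 62 of the 420 pair regions (14.8%) in 27 locus pairs, and the lowest NC_049732.1, with 1 region on 445 loci. The mitochondrial sequence, which had 26 to 32 peaks up to 1000 bases per list, held no pair in any list.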

How the data were processed

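Per the labels' protocols, poly(A) RNA was taken on oligo(dT) beads, fragmented and divided between an m6A antibody capture and an input, and libraries were sequenced on an Illumina NovaSeq. HOMER, HISAT2 2.1.0, Bowtie2 2.2.5 and fastp 0.20.0 are named, without roles, per the submitters' processing notes. The sources used here do not give the genome build, the annotation, or the peak caller and its threshold. The authors deposited 1 list of peaks per captured sample, without pooling, with a score per peak whose scale is not stated.

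Pairs, pair regions and loci were computed from the lists. The members and the lists of measures were chosen with earlier results of these data known. Pair counts equalled those of bedtools 2.31.1, and in simulated lists all 450 planted pair regions and locus classes were recovered. A locus pair was tail to tail when the loci overlapped at their 3' ends, head to head when they overlapped at their 5' ends, and nested when 1 lay within the other. Values per list were compared between times by two-sided exact permutation tests, and peaks in pairs were compared with other peaks by exact two-sided sign-flip tests over the 6 lists, with Benjamini-Hochberg adjustment within each family. Regions were named by the highest smallest score percentile of the weaker partner (6 of all lists, 4 per time) and locus pairs by their number of pair regions (4), with ties by position. The alternatives were other limits on span and overlap, the stronger 50% of each list, equal list length, other joining distances, sequences or lists left out, looser presence, another way of joining pairs and a replicate block. No genome of these sequences was used, so no sequence and no gene is given. Same-numbered lists were not paired by any label. The scripts ran on matplotlib 3.10.9, scipy 1.17.1, pandas 2.3.3 and numpy 2.4.6 under Python 3.11.15.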

Additional observations from a re-analysis of the deposited data

Results flagged for a closer look

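Peaks that span more than 1000 bases were outside the comparisons and overlapped peaks of the other strand as well: with them, 531 further overlapping plus-minus pairs were present over the 6 lists, 101, 78 and 90 in the 24 h lists and 71, 111 and 80 in the 2 h lists, from 160 such long peaks.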

How the results depend on the processing

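The difference in the number of pairs (-41.7) and in the share of peaks in pairs stayed below 0 under every alternative run, with -54 to -35 pairs when 1 list was left out. The lists of the times no longer separated in pair number with peaks up to 500 bases (-29.3, exact permutation p = 0.2), with no limit on span (-39.3, p = 0.3) or without NC_049727.1 (-31.3, p = 0.2). The difference in tail-to-tail share between the times, -0.36 percentage points, turned to 1.38 with peaks up to 500 bases, 0.860 at equal list length, 2.69 with a joining distance of 10000 bases, 0.214 without NC_049727.1 (an alternative added after the data were seen), and ranged from -0.750 to 0.862 with 1 list left out, above 0 only without the 2 h list of replicate 3; it was -5.85 with no limit on span (exact permutation p = 0.1, lists separated). The share of locus pairs that met tail to tail, 76.0%, was 60.3% with no limit on span, 68.5% with overlaps of at least 25 bases, 68.9% with overlaps of at least 50% of the shorter peak, 82.1% and 40.6% with joining distances of 500 and 10000 bases. The 70 pair regions of all 6 lists were 43 with overlaps of at least 25 bases, 38 with overlaps of at least 50% and 40 in the stronger 50% of each list. The 2 regions only at 24 h became 6 with no limit on span, 4 with overlaps of at least 50%, and 24 when 2 of 3 lists sufficed, against 35 in place of 9 at 2 h. Leaving out 1 list loosens the requirement and gave 10, 7 and 12 regions only at 24 h without the 24 h lists of replicates 1, 2 and 3 and 3, 4 and 2 without those of 2 h, so 2 to 12. For regions only at 2 h it gave 15, 19 and 18 without the 24 h lists and 24, 19 and 12 without the 2 h lists, so 12 to 24, and 71 to 85 regions were in all lists left. The score difference was 26.6 to 27.5 and the recurrence difference 24.2 to 26.1 with 1 list left out, where 5 lists cannot give p below 0.0625. With the replicate block, which no label supports (correlations of same-numbered lists from 0.000991 to 0.00703), the difference of -41.7 pairs had an exact two-sided sign-flip p = 0.25, the smallest for 3 pairs. Apart from fewer lists or a looser requirement, the cause of these shifts was not tested.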
